A study of Mus musculus with 6 samples.

Results

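Integrins, cadherins and claudins are surface proteins by which a cell holds on to matrix and to its neighbours. The members described here are the protein-coding mouse genes whose symbol starts with Itga, Itgb, Cdh or Cldn followed by a digit, together with the lettered alpha chains Itgad, Itgae, Itgal, Itgam, Itgav and Itgax. The rule took 86 of the 48432 genes in the deposited table: 30 integrin symbols, 23 cadherins and 33 claudins. Among the 30 integrin symbols, 3 (Itgb1bp1, Itgb1bp2 and Itgb3bp) code for proteins that bind a beta chain and are not integrins themselves. The RNA came from hepatocytes of FVB mice, in 3 groups of 2 samples: adults fed DDC for 4 weeks, E18 embryos, and normal fed adults. DDC is a porphyrin-inducing toxicant that in mice injures hepatocytes and bile ducts and is followed by regeneration. The E18 hepatocytes of each sample came from livers pooled from approximately 8 embryos. Genotype is given as the FVB strain alone, no group carries a stated allele, and neither the exact age nor the sex of the fed mice is given.

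An integrin is a pair of an alpha and a beta chain that spans the membrane, binds matrix or a counter-receptor outside the cell and is coupled to actin inside it by talin and kindlin. Each alpha chain sets the ligand (collagen, laminin, fibronectin and other proteins read through an RGD motif, or leukocyte counter-receptors), and the beta chain Itgb1 pairs with the greatest variety of alpha chains. Classical cadherins hold neighbouring cells together through calcium-dependent contacts and bind catenins in the cytoplasm, and hepatocytes are known for making both E-cadherin (Cdh1) and N-cadherin (Cdh2). Claudins build the tight junction strands that seal the bile canaliculus between hepatocytes from the blood side, and each tissue makes its own mixture of them.

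Libraries were poly(A)-selected and strand-specific, and values are TPM, a transcript abundance scaled to the same total in each sample and a level per unit of gene length that can be set side by side between genes. The table gives no counts, so depth is unknown. Genes reaching 1 TPM in 2 or more samples were tested, 14307 in all. At 1 TPM or more, 31 and 30 members were seen in the DDC fed samples, 41 in each E18 sample, and 20 and 18 in the normal fed samples. Over all genes these counts were 12204 and 12322 in DDC fed, 13983 and 13748 in E18 and 10792 and 10401 in normal fed samples. Normal fed sample 1 stood apart from normal fed sample 0: the median difference between the pair was 0.372 in absolute log2(TPM + 1) over all genes tested, against 0.125 between the DDC fed samples and 0.168 between the E18 samples. Of the 43 members tested, 32 were lower in normal fed sample 1 than in normal fed sample 0. All genes tested moved the same way: the median of sample 1 minus sample 0 was -0.22 over all genes and -0.138 over the members. The 10 hepatocyte markers summed to 21340 and 20020 TPM in DDC fed samples, 11920 and 7548 TPM in E18 samples and 29580 and 23180 TPM in normal fed samples, and Hpx was listed at 0 in both DDC fed samples. In E18 samples 7 of the 10 were lower than in normal fed samples at a limma adjusted p under 0.05, where 12.7% of all genes tested were. Among the 7, Tdo2 had 1.52 and 1.44 TPM in E18 and 1495 and 1171 TPM in normal fed samples. The E18 samples are called here by their label, and their sum of neutrophil genes, given below, was larger than their hepatocyte sum. Markers of other cells were also present and moved with the groups. The endothelial list of 12 genes summed to 224 and 232 TPM in DDC fed, 611 and 631 TPM in E18 and 64.5 and 22.4 TPM in normal fed samples. The macrophage list of 11 genes summed to 1081 and 1330 TPM in DDC fed, 3771 and 4796 TPM in E18 and 129.6 and 115 TPM in normal fed samples. Of this, Lyz2 alone had 331 and 445 TPM in DDC fed, 2674 and 3352 TPM in E18 and 19.6 and 26.3 TPM in normal fed samples. In 8 of the 11 the order was E18, DDC fed, normal fed without overlap, and in Cd68, Clec4f and Vsig4 it was not. Of all genes tested, 40.7% had that order. Vsig4 was highest in DDC fed samples, at 77.42 and 83.65 TPM against 23.45 and 33.02 TPM in E18 samples. The 9 neutrophil genes summed to 3.05 and 3.59 TPM in DDC fed, 55980 and 66650 TPM in E18 and 0.374 and 0.186 TPM in normal fed samples. What part these cells have in any result below was not tested, and in such bulk RNA fewer cells of a type and less RNA per cell cannot be told apart.

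Adhesion genes were more often higher than lower in both DDC fed and E18 samples against normal fed ones, as were all genes tested. Between DDC fed and normal fed samples, 23 of the 43 members tested were higher and 0 were lower (53.5% higher), at a limma adjusted p under 0.05, where 34.2% of all genes tested were higher and 3.07% lower. At an unadjusted limma p under 0.05, 0 members were lower as well. The median log2 fold change of the members was 1.12, or 1.23 over the 38 not listed at 0 in a whole group, against 0.45 for all genes. Between E18 and normal fed samples, 34 members were higher and 5 lower, or 79.1% and 11.6% of those tested, where 63.0% of all genes were higher and 12.7% lower. Their median log2 fold change was 1.73, or 1.64 over the 38 not listed at 0 in a whole group, against 1.06 for all genes. Between DDC fed and E18 samples, 9 members were higher and 23 lower, where 17.7% of all genes were higher and 47.0% lower, with a median of -1.14 for the members and -0.55 for all genes. The comparisons share groups: the normal fed samples stand in the first 2, and the DDC fed and E18 samples in the last as well.

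By family, the DDC fed samples were higher than normal fed ones in 15 of 23 integrin symbols, 6 of 12 claudins and 2 of 8 cadherins tested, or 65.2%, 50% and 25%, where 34.2% of all genes tested were higher. E18 samples were higher in 19 and lower in 1 of the integrin symbols, higher in 8 and lower in 4 of the claudins, and higher in 7 of the cadherins, so that 82.6%, 66.7% and 87.5% of the 3 families were higher, where 63.0% of all genes were. These counts run over genes that could pass the filter through a single group. Of the 43, 12 reached 1 TPM in E18 samples alone (Cdh3, Cdh4, Cdh11, Cdh24, Cldn6, Cldn13, Cldn15, Itga2, Itga4, Itgb2l, Itgb4 and Itgb7) and so had to differ, and Cldn23 did so in DDC fed samples alone. With median-ratio scaling, which sets the typical gene equal between samples, the all-gene medians were -0.02, 0.04 and -0.06 in the 3 comparisons and the member medians 0.78, 1.38 and -0.39. Among all genes called, 91.8%, 83.2% and 27.4% were higher in the 3 comparisons as deposited, and 61.5%, 52.6% and 46% with median-ratio scaling. The sign of the fold change turned with that scaling in 2 of 34 members for DDC fed against normal fed, in 5 of 34 for E18 against normal fed and in 3 of 36 for DDC fed against E18.

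**Figure D1:**
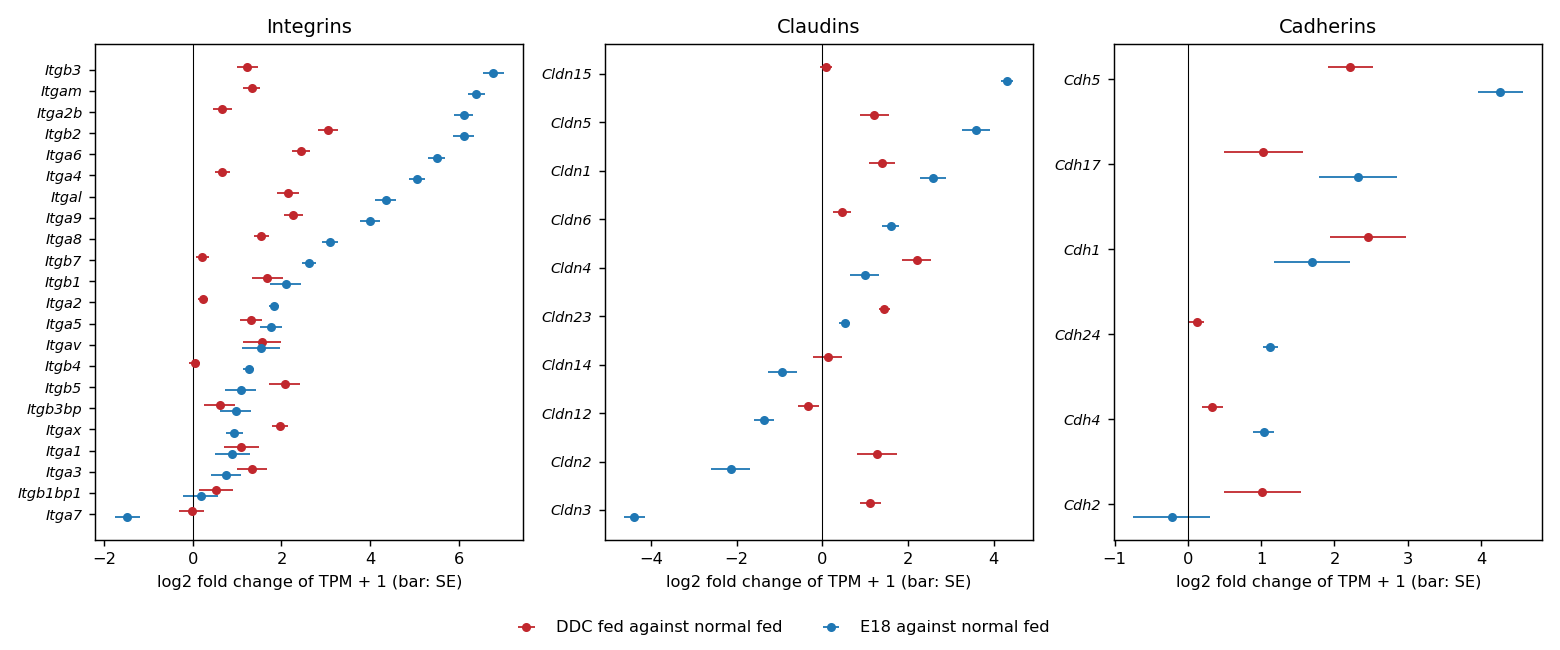
Fitted log2 fold changes of TPM + 1 of the members tested that are not listed at 0 in a whole group, DDC fed against normal fed (red, drawn above) and E18 against normal fed (blue, drawn below). Points are fitted values and bars the standard error from limma, with 2 samples in each group. Most integrins lie right of 0 in both comparisons, while Cldn3 lies at 1.12 in the first and -4.39 in the second.

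Among the beta chains, the abundant Itgb1 and Itgb5 were higher in DDC fed than in normal fed samples, and the blood-cell chains Itgb2 and Itgb3, with Itgb2l and Itgb7 at lower levels, were high in E18 samples. Itgb1, the common partner of matrix-binding alpha chains (chromosome 8, 128685654 to 128733200, plus strand, GRCm38), had 169 and 139.9 TPM in DDC fed samples, 209 and 204 TPM in E18 samples and 69.1 and 32.4 TPM in normal fed samples. No group overlapped another, with E18 highest and normal fed lowest. The log2 fold change of Itgb1 was 1.68 ± 0.35 (SE, limma) in DDC fed against normal fed samples (adjusted p = 0.0107) and 2.10 ± 0.35 in E18 against normal fed samples (adjusted p = 0.00145). For DDC fed against E18 it was -0.42 ± 0.35 (adjusted p = 0.327), and this value turned to 0.09 with median-ratio scaling. Against normal fed samples that scaling gave 1.0 for DDC fed and 0.91 for E18, and the exon-length correction, which removes each sample's trend with exon length, gave 1.11 and 1.03, with both calls kept. The DDC fed call for Itgb1 was lost without DDC fed sample 0 (adjusted p = 0.0786) and without E18 sample 0 or 1 (adjusted p = 0.0639 and 0.0638), and over its 12 alternatives adjusted p ran between 0.000571 and 0.0786.

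Itgb5, which pairs with Itgav to bind vitronectin, was among the few members highest in DDC fed samples. It had 76.2 and 67.1 TPM in DDC fed samples, 35.1 and 35.9 TPM in E18 samples and 24.2 and 10.8 TPM in normal fed samples. All 3 groups stood apart. DDC fed samples were 2.07 ± 0.35 above normal fed samples on the log2 scale (limma adjusted p = 0.00432), which passed in 12 of 12 alternatives. Against E18 the difference was 0.99 ± 0.35 (adjusted p = 0.0414), lost when either DDC fed sample (adjusted p = 0.171 and 0.11) or either E18 sample (adjusted p = 0.204 and 0.201) was left out. Itgb5 in E18 against normal fed samples, 1.08 ± 0.35 (adjusted p = 0.0261), turned to -0.07 with median-ratio scaling, was 0.535 without normal fed sample 1 and 1.62 without normal fed sample 0, and was not past the threshold without E18 sample 0 or 1 (adjusted p = 0.148 and 0.159).

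Itgb2 is the beta chain of leukocyte integrins and Itgb3 that of the platelet fibrinogen receptor. Itgb2 had 11.6 and 14.2 TPM in DDC fed, 103 and 126 TPM in E18 and 0.903 and 0.465 TPM in normal fed samples. Itgb3 had 2.12 and 1.10 TPM in DDC fed, 115 and 121 TPM in E18 and 0.123 and 0.0524 TPM in normal fed samples. Both chains followed the order E18, DDC fed, normal fed without overlap. In DDC fed against normal fed samples the log2 fold changes were 3.05 ± 0.24 for Itgb2 (limma adjusted p = 0.000215) and 1.23 ± 0.24 for Itgb3 (adjusted p = 0.00778); the Itgb3 call was lost without DDC fed sample 0 (adjusted p = 0.0803) and with the exon-length correction (0.63, adjusted p = 0.0788). In E18 against normal fed samples they were 6.10 ± 0.24 for Itgb2 and 6.77 ± 0.24 for Itgb3 (adjusted p = 1.95e-06 and 1.72e-06). Beside Itgb2 stand the macrophage and neutrophil sums given above. Beside Itgb3 stands the list of 8 megakaryocyte and platelet genes, which summed to 3.94 and 4.21 TPM in DDC fed, 1937 and 2189 TPM in E18 and 0.636 and 0.624 TPM in normal fed samples, with Gp9, Gp6 and Treml1 listed at 0 in both DDC fed and both normal fed samples.

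The other beta chains were low or seen in E18 samples. Itgb7, which pairs with Itga4 and Itgae on lymphocytes, had 0.371 and 0.448 TPM in DDC fed, 5.54 and 7.41 TPM in E18 and 0.223 and 0.195 TPM in normal fed samples. Itgb2l, a relative of Itgb2, was listed at 0 in both DDC fed and both normal fed samples and had 14.5 and 16.4 TPM in E18 samples. Itgb4, the laminin-binding chain of hemidesmosomes, stayed at or under 0.140 TPM in the fed groups and had 1.87 and 1.37 TPM in E18 samples. Itgb6 and Itgb8, both partners of Itgav, did not reach the filter, with at most 0.166 and 0.26 TPM in any sample.

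**Figure D2:**
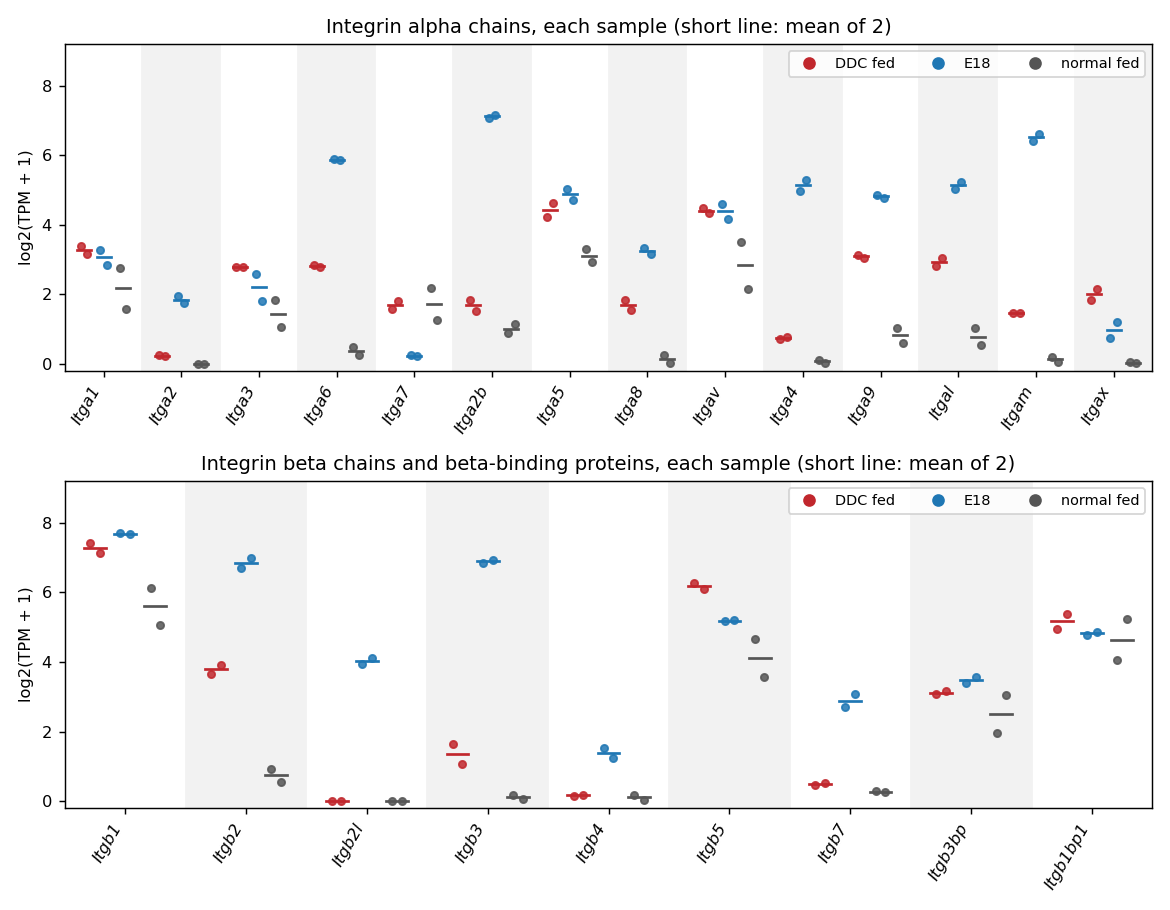
Level of each tested integrin symbol in each of the 6 samples, as log2(TPM + 1), with DDC fed in red, E18 in blue and normal fed in grey. Short lines are the means of 2 samples. Itgb1 is the highest beta chain in all 6 samples, and Itga2b, Itgb3 and Itgam are high in E18 samples alone.

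Of the 4 RGD-binding alpha chains, all 4 were called higher in both comparisons with normal fed samples. Of all genes tested, 34.2% were higher in DDC fed and 63.0% in E18 than in normal fed samples. The 4 chains differed in where they were highest. Itgav, partner of Itgb1, Itgb3 and Itgb5, had 21.4 and 19.2 TPM in DDC fed, 23.2 and 17.1 TPM in E18 and 10.4 and 3.49 TPM in normal fed samples. DDC fed and E18 samples overlapped, and both lay above normal fed samples. The fold change of Itgav was 1.57 ± 0.43 in DDC fed (limma adjusted p = 0.0287) and 1.55 ± 0.43 in E18 samples against normal fed samples (adjusted p = 0.0142). Without normal fed sample 1 these became 0.895 and 0.872. The DDC fed call was lost without DDC fed sample 0 or 1 (adjusted p = 0.135 and 0.108) and without either E18 sample (adjusted p = 0.11), the E18 call without E18 sample 0 or 1 (adjusted p = 0.149 and 0.086), and both with median-ratio scaling (adjusted p = 0.0771 and 0.269).

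Itga5, the fibronectin receptor chain, had 17.8 and 23.8 TPM in DDC fed, 31.8 and 25.5 TPM in E18 and 8.86 and 6.60 TPM in normal fed samples. Its fold changes were 1.32 ± 0.25 in DDC fed (limma adjusted p = 0.00692) and 1.77 ± 0.25 in E18 samples (adjusted p = 0.000616) against normal fed samples, the first lost without DDC fed sample 1 (adjusted p = 0.0758). They were 0.70 and 0.66 with median-ratio scaling and 0.74 and 0.60 with the exon-length correction. Itga8, a chain known from stellate cells and smooth muscle, had 2.57 and 1.92 TPM in DDC fed, 9.01 and 7.97 TPM in E18 and 0.194 and 0.0237 TPM in normal fed samples. It was higher in DDC fed (1.55 ± 0.18, adjusted p = 0.000873) and in E18 samples (3.10 ± 0.18, adjusted p = 7.69e-06) and passed in all 12 alternatives of both, at 0.93 and 1.77 with the exon-length correction. Beside it, the 11 stellate cell and fibroblast genes summed to 367 and 326 TPM in DDC fed, 318 and 292 TPM in E18 and 25.6 and 11.7 TPM in normal fed samples. Of this, Dcn alone had 227.9 and 210 TPM in DDC fed, 111.5 and 94.7 TPM in E18 and 19.1 and 9.57 TPM in normal fed samples. In 7 of the 11 the order was that of Itga8 (E18, DDC fed, normal fed) without overlap, where 40.7% of all genes tested had it. Dcn, Lrat, Lum and Ngfr did not have that order. The part of these cells in the level of Itga8 was not tested.

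Itga2b, the alpha chain that makes the platelet fibrinogen receptor with Itgb3, had 2.58 and 1.91 TPM in DDC fed, 135 and 143 TPM in E18 and 0.850 and 1.23 TPM in normal fed samples. It was the most abundant alpha chain of the E18 samples, at 29.8% and 30.8% of the summed alpha chain TPM, and its fold change against normal fed samples was 6.11 ± 0.21 (limma adjusted p = 1.72e-06). In DDC fed samples the fold change of Itga2b was 0.67 ± 0.21 (adjusted p = 0.0493) and passed in 3 of 12 alternatives, and leaving out any DDC fed or E18 sample ended the call, with adjusted p of 0.322 and 0.137 without a DDC fed sample and 0.104 and 0.103 without an E18 sample.

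The laminin-binding chains went separate ways. Itga6, partner of Itgb1 and Itgb4, had 6.25 and 5.86 TPM in DDC fed, 57.9 and 57.4 TPM in E18 and 0.415 and 0.190 TPM in normal fed samples. The replicates lay close together and the groups far apart: 2.44 ± 0.20 in DDC fed (limma adjusted p = 0.000238) and 5.50 ± 0.20 in E18 samples (adjusted p = 1.72e-06) against normal fed samples, past the threshold in every alternative run. Itga3 had 5.86 and 5.89 TPM in DDC fed, 5.05 and 2.5 TPM in E18 and 2.56 and 1.10 TPM in normal fed samples. Its DDC fed rise, 1.33 ± 0.34 (adjusted p = 0.0225), passed in 3 of 12 alternatives: leaving out any sample other than normal fed sample 0 ended it, at adjusted p of 0.0978 and 0.0986 (DDC fed), 0.0513 and 0.0532 (E18) and 0.0779 (normal fed sample 1). Itga7, the muscle laminin receptor chain, was the integrin lower in E18 samples: 2.01 and 2.48 TPM in DDC fed, 0.188 and 0.175 TPM in E18 and 3.52 and 1.40 TPM in normal fed samples. Its E18 fold change was -1.48 ± 0.28 (adjusted p = 0.00267), ended without E18 sample 1 (adjusted p = 0.0512). Itga7 lies on the plus strand over Mettl7b on the minus strand, which had 1181 and 1099 TPM in DDC fed, 2.53 and 0.505 TPM in E18 and 1123 and 829.5 TPM in normal fed samples, and the sources used here do not say whether the counting kept the strands apart.

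Of the collagen-binding chains, Itga1 was measured in all samples, with 9.41 and 7.96 TPM in DDC fed, 8.78 and 6.17 TPM in E18 and 5.83 and 1.99 TPM in normal fed samples. It did not pass against normal fed samples (1.09 ± 0.40 for DDC fed and 0.89 ± 0.40 for E18, limma adjusted p = 0.0699 and 0.0776). Without normal fed sample 0 both passed (1.69 and 1.48, adjusted p = 0.00283 and 0.00216), without normal fed sample 1 they were 0.50 and 0.29, and the E18 value turned to -0.66 with the exon-length correction. Itga1 shares its strand and part of its locus with Pelo. Itga2, the platelet and epithelial collagen receptor chain, stayed at or under 0.193 TPM in the fed groups and had 2.88 and 2.36 TPM in E18 samples. Itga10 and Itga11 stayed under the filter.

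Itga4 and Itga9, related chains that bind fibronectin splice segments, tenascin and VCAM, were both highest in E18 samples and lowest in normal fed samples. Itga9 had 7.82 and 7.27 TPM in DDC fed, 28.0 and 26.5 TPM in E18 and 1.07 and 0.518 TPM in normal fed samples. Itga4 had 0.651 and 0.703 TPM in DDC fed, 30.7 and 38.0 TPM in E18 and 0.0866 and 0.0249 TPM in normal fed samples. The fold changes of Itga9 were 2.27 ± 0.22 in DDC fed and 3.99 ± 0.22 in E18 samples against normal fed samples (limma adjusted p = 0.000466 and 6.58e-06). Those of Itga4, which passed the filter through E18 samples alone, were 0.67 ± 0.17 and 5.06 ± 0.17. Its DDC fed value (adjusted p = 0.0248) was lost without DDC fed sample 0 or 1 (adjusted p = 0.149 and 0.169), was 0.03 with the exon-length correction and, being of a gene under 1 TPM in both fed groups, was 2.35 with a pseudocount of 0.1. The exon-length correction gave 2.65 for Itga9 in E18 samples.

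The leukocyte alpha chains Itgal, Itgam, Itgax and Itgad pair with Itgb2. Itgal, of lymphocytes and other leukocytes, had 6.11 and 7.20 TPM in DDC fed, 31.9 and 36.5 TPM in E18 and 1.05 and 0.450 TPM in normal fed samples. Itgam, of monocytes and neutrophils, had 1.77 and 1.74 TPM in DDC fed, 84.9 and 97.6 TPM in E18 and 0.151 and 0.0479 TPM in normal fed samples. Itgax, best known from dendritic cells and activated macrophages, had 2.57 and 3.50 TPM in DDC fed, 0.680 and 1.30 TPM in E18 and 0.0335 and 0.0208 TPM in normal fed samples. The 3 chains thus had different orders, with E18 highest for Itgal and Itgam and DDC fed highest for Itgax. Against normal fed samples, DDC fed samples were higher by 2.15 ± 0.24 for Itgal, 1.33 ± 0.19 for Itgam and 1.96 ± 0.19 for Itgax (limma adjusted p = 0.000764, 0.00212 and 0.000441), each past the threshold in 12 of 12 alternatives. Between DDC fed and E18 samples, Itgax was 1.03 ± 0.19 higher and Itgam -5.06 ± 0.19 (adjusted p = 0.00288 and 2.89e-06), in 12 of 12 alternatives for both. The E18 difference of Itgax from normal fed samples, 0.94 ± 0.19 (adjusted p = 0.00335), turned to -0.22 with the exon-length correction. Ptprc, the pan-leukocyte gene, had 5.11 and 5.71 TPM in DDC fed, 55.7 and 66.4 TPM in E18 and 0.697 and 0.534 TPM in normal fed samples. Itgad and Itgae did not reach the filter.

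In the proteins that bind beta chains the normal fed samples were far apart. Itgb1bp1 had 30.2 and 40.8 TPM in DDC fed, 26.4 and 28.3 TPM in E18 and 15.5 and 37.0 TPM in normal fed samples, so that the normal fed pair spanned nearly the whole range. Itgb3bp, also a centromere protein, had 7.4 and 7.94 TPM in DDC fed, 9.46 and 10.8 TPM in E18 and 2.90 and 7.23 TPM in normal fed samples. The E18 call for Itgb3bp (0.97 ± 0.35, limma adjusted p = 0.039) passed in 4 of 12 alternatives, and its value was 0.435 without normal fed sample 0 and 1.51 without normal fed sample 1; leaving out any DDC fed or E18 sample ended it (adjusted p between 0.0667 and 0.222). Both genes overlap neighbours on the other strand.

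The promoters of Itga2b and Itgam, the alpha chains with the largest E18 differences from normal fed samples in log2(TPM + 1), are shown to let a reader see the letters upstream of them. Each runs between 250 bases before and 50 bases after the annotated start, 5′ to 3′ on the gene's strand, as RefSeq gives it on GRCm38.p6. They lie at chr11:102469834-102470133 (minus strand, Itga2b) and chr7:128062390-128062689 (plus strand, Itgam). Capitals mark GAGGAAG on either strand, a core that ETS factors of blood cells bind.
Itga2b: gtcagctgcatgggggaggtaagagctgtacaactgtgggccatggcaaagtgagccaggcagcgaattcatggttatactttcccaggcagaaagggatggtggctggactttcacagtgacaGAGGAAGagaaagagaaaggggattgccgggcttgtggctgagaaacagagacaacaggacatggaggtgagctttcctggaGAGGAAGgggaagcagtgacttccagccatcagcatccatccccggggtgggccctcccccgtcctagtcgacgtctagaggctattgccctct
Itgam: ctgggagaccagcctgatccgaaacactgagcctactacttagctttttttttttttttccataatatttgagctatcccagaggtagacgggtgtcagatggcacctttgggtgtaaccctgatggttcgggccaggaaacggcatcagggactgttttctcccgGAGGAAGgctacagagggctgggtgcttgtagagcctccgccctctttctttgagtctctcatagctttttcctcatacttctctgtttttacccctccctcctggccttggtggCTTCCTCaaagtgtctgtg
In Itga2b the matches begin at -126 and -44 relative to the start, and in Itgam at -84 and, on the opposite strand, at 32. Of 32851 promoters of the same length 13.6% hold this word at least once. Searched on both strands and not in these windows were AGATAA, a word of zinc-finger factors held by 11.2% of promoters, the core promoter word TATAAA (13.6%), the AP-1 word TGANTCA (7.81%) and the TEAD word GGAATG (14.7%). A match is a description of the letters only.

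Itgb1 made up most of the beta chain mixture of the adults, and E18 samples had a different mixture. Of the summed TPM of the 9 beta chains, Itgb1 took 65.1% and 62.7% in DDC fed, 43.1% and 39.8% in E18 and 73.0% and 73.7% in normal fed samples. Itgb5 took 29.3% and 30.1% in DDC fed, 7.25% and 7% in E18 and 25.5% and 24.6% in normal fed samples. Together these 2 chains left little room for others in the fed groups. In E18 samples Itgb3 took 23.7% in each and Itgb2 21.3% and 24.6%, against 0.816% and 0.492% for Itgb3 and 4.45% and 6.36% for Itgb2 in DDC fed samples. The summed beta chain level was 259.8 and 223 TPM in DDC fed, 484 and 512 TPM in E18 and 94.6 and 44.0 TPM in normal fed samples, and the 18 alpha chains summed to 87.9 and 90.7 TPM in DDC fed, 452 and 465 TPM in E18 and 35.5 and 17.8 TPM in normal fed samples.

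**Figure D3:**
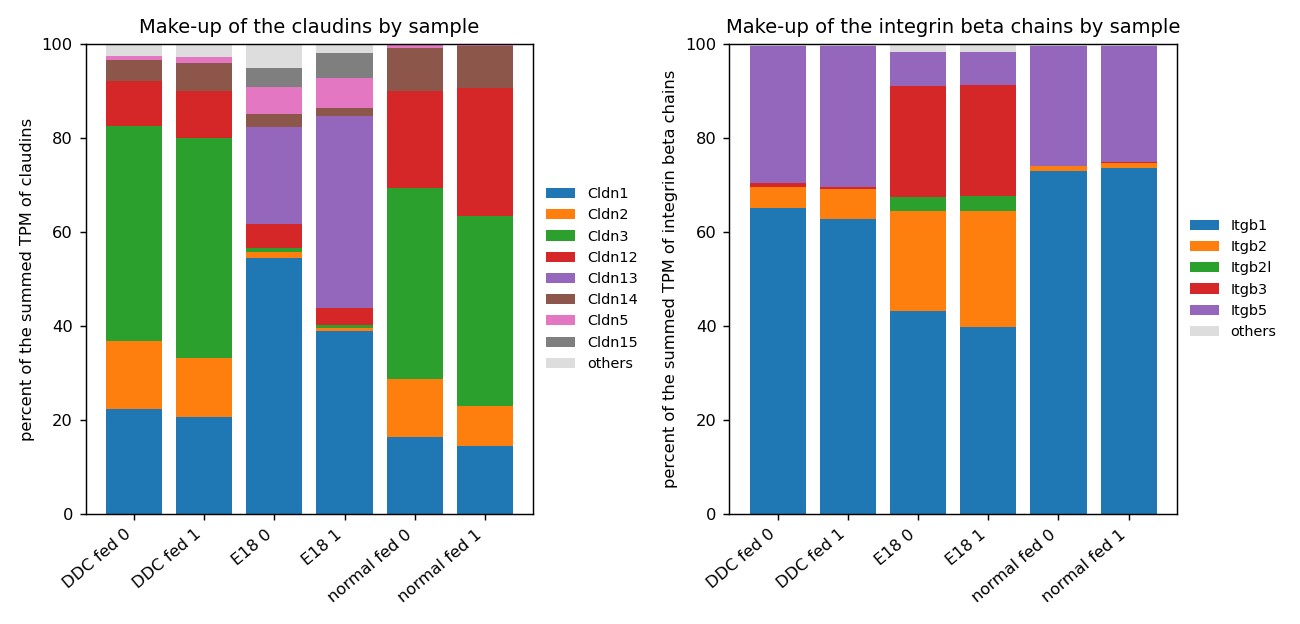
Share of each gene in the summed TPM of its family, in percent, for the 6 samples, with DDC fed at left, E18 in the middle and normal fed at right. Itgb1 is the largest beta chain share in all 6 samples, Cldn3 the largest claudin share in the fed groups, and Cldn13 is 20.5% and 40.9% of the claudin sum in the E18 samples.

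Of the cadherins, Cdh1 and Cdh5 were higher in DDC fed than in normal fed samples, while Cdh2 did not pass in the fit of all 6 samples. Cdh1, E-cadherin of epithelial adherens junctions (chromosome 8, 106603351 to 106670246, plus strand), had 76.5 and 64.7 TPM in DDC fed, 52.7 and 31.9 TPM in E18 and 22.0 and 6.40 TPM in normal fed samples. The groups did not overlap, and normal fed samples were the lowest and the farthest apart. Cdh1 was 2.45 ± 0.52 higher in DDC fed than in normal fed samples (limma adjusted p = 0.0113) and 1.69 ± 0.52 higher in E18 than in normal fed samples (adjusted p = 0.0219). The first call was lost without DDC fed sample 0 (adjusted p = 0.0656) or either E18 sample (adjusted p = 0.0635 and 0.0633), and adjusted p lay between 0.000947 and 0.0656 over 12 alternatives. The second was lost without E18 sample 0 or 1 (adjusted p = 0.202 and 0.0892) and with median-ratio scaling (adjusted p = 0.297), and was 0.873 without normal fed sample 1.

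Cdh2, N-cadherin, had 64.6 and 49.7 TPM in DDC fed, 29.4 and 18.9 TPM in E18 and 49.7 and 15.1 TPM in normal fed samples. The normal fed pair was so far apart that it covered the E18 values. The fold change was 1.01 ± 0.52 in DDC fed (limma adjusted p = 0.172) and -0.22 ± 0.52 in E18 samples (adjusted p = 0.718) against normal fed samples, and 1.23 ± 0.52 in DDC fed against E18 samples (adjusted p = 0.0765). Without normal fed sample 0 the DDC fed difference from normal fed samples was 1.84 (adjusted p = 0.00446), and without normal fed sample 1 it was 0.19. The difference between DDC fed and E18 samples passed when either normal fed sample was left out (adjusted p = 0.00574 and 0.00566), and that of E18 from normal fed samples passed without normal fed sample 1 (-1.05, adjusted p = 0.0214). With median-ratio scaling Cdh2 was lower in E18 than in normal fed samples (-1.36, adjusted p = 0.0305) and higher in DDC fed than in E18 samples (1.72, adjusted p = 0.015).

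The ratio of Cdh1 to Cdh2 within a sample does not depend on how samples are scaled, and its replicates lay close together. It was 1.18 and 1.30 in DDC fed, 1.79 and 1.69 in E18 and 0.442 and 0.424 in normal fed samples. On the log2 scale the mean was 0.31 ± 0.10 in DDC fed, 0.80 ± 0.06 in E18 and -1.21 ± 0.04 in normal fed samples (SD, n = 2 each). Cdh1 was thus the more abundant of the pair in DDC fed and E18 samples and the less abundant in normal fed samples. The difference in log2 ratio was 1.52 between DDC fed and normal fed samples, 2.01 between E18 and normal fed samples and -0.49 between DDC fed and E18 samples. With the exon-length correction it was 1.49, 2.13 and -0.64. The corrected values were taken on log2(TPM + 1) and the first ones on log2 TPM, so they differ in the pseudocount as well. This ratio was chosen after its values were seen, and with 2 samples against 2 an exact permutation test cannot give a two-sided p below 0.333, so it is given as a description.

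**Figure D4:**
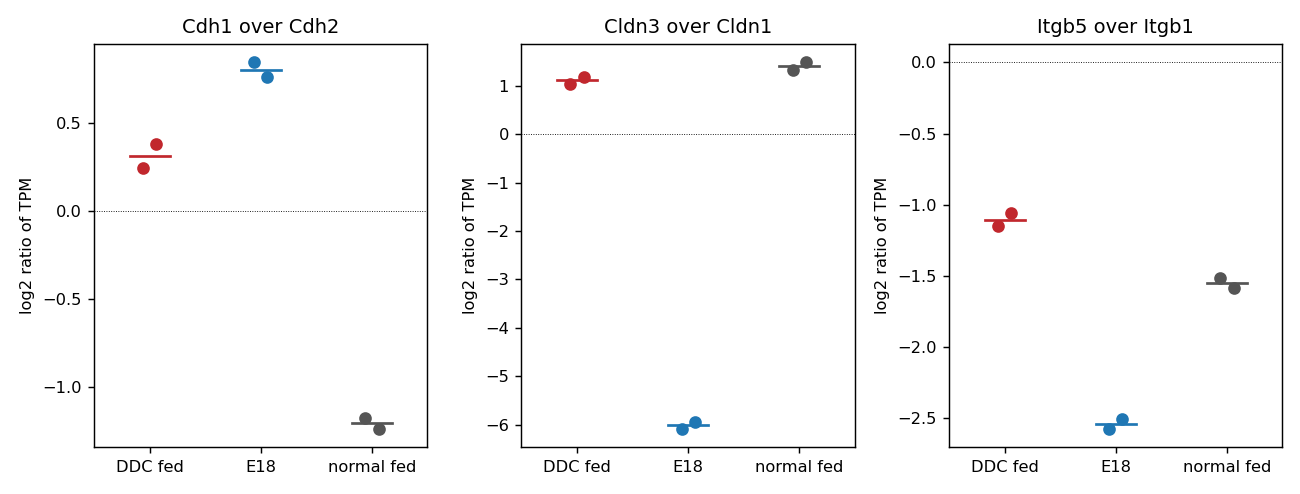
Log2 ratio of the TPM of 2 genes within each sample, for Cdh1 over Cdh2 (left), Cldn3 over Cldn1 (middle) and Itgb5 over Itgb1 (right), with each group's 2 samples as points and their mean as a line. The dotted line marks equal levels. The replicates of each group lie close together in all 3 panels, and Cldn3 over Cldn1 lies near -6 in E18 samples alone.

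Cdh5, the VE-cadherin of endothelial junctions (chromosome 8, 104101625 to 104144511, plus strand), had 10.9 and 14.4 TPM in DDC fed, 55.3 and 54.9 TPM in E18 and 2.87 and 1.20 TPM in normal fed samples. It was higher by 2.21 ± 0.31 in DDC fed (limma adjusted p = 0.00191) and by 4.26 ± 0.31 in E18 samples (adjusted p = 2.24e-05) than in normal fed samples, and passed in all 12 alternatives of both. Of the 12 endothelial markers, 9 had the same order of groups without overlap, where 40.7% of all genes tested had it. Clec4g, Plvap and Tie1 did not. Clec4g had 82.4 and 88.2 TPM in DDC fed, 44.4 and 46.9 TPM in E18 and 22.2 and 9.70 TPM in normal fed samples. Pecam1, which did, had 7.87 and 8.27 TPM in DDC fed, 41.0 and 44.4 TPM in E18 and 1.97 and 0.514 TPM in normal fed samples. Of these markers, 10 were higher in DDC fed and 12 in E18 samples than in normal fed samples, where 34.2% and 63.0% of all genes tested were. The part of endothelial RNA in the level of Cdh5 was not tested.

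Cdh17, the liver-intestine cadherin, had 1.21 and 0.897 TPM in DDC fed, 8.71 and 1.60 TPM in E18 and 0 and 0.00867 TPM in normal fed samples. The E18 pair differed widely, and the E18 call (2.32 ± 0.54, limma adjusted p = 0.00645) had a value of 1.37 without E18 sample 0 and was lost with the exon-length correction (1.20, adjusted p = 0.0848). Epcam, a cholangiocyte marker, was also unequal in that pair, at 21.8 and 7.21 TPM in E18 samples, against 1.22 and 1.39 TPM in DDC fed and 0.0534 and 0.0441 TPM in normal fed samples. The remaining tested cadherins were low. Cdh3 (P-cadherin) had 0.212 and 0.192 TPM in DDC fed, 2.64 and 2.03 TPM in E18 samples and was listed at 0 in both normal fed samples. Cdh11, a cadherin of mesenchymal cells, had 0.00505 and 0.0049 TPM in DDC fed and 1.48 and 1.40 TPM in E18 samples and was listed at 0 in both normal fed samples. Cdh4 (R-cadherin) and Cdh24 reached 1.22 and 1.56 TPM in E18 samples and at most 0.498 and 0.299 TPM in the fed groups, and with the exon-length correction the E18 difference of Cdh4 from normal fed samples turned to -0.29. Cdh15, the muscle M-cadherin, was under the filter and had the opposite pattern, with 0.473 and 0.49 TPM in DDC fed and 0.467 and 0.265 TPM in normal fed samples while listed at 0 in both E18 samples.

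The claudins of the fed adults and of E18 samples had different leading genes. Cldn3 was the leading claudin of the fed groups, with 179.6 and 183 TPM in DDC fed and 98.0 and 69.9 TPM in normal fed samples, and had 3.60 and 2.49 TPM in E18 samples. Every fed sample lay above every E18 sample, and DDC fed above normal fed. The fold change was 5.51 ± 0.24 in DDC fed against E18 (limma adjusted p = 5.03e-06) and -4.39 ± 0.24 in E18 against normal fed samples (adjusted p = 6.87e-06), both in 12 of 12 alternatives. In DDC fed against normal fed samples it was 1.12 ± 0.24 (adjusted p = 0.0124), lost without DDC fed sample 0 or 1 (adjusted p = 0.0866 and 0.0924), and 0.44 with median-ratio scaling (adjusted p = 0.0994).

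Cldn2, a pore-forming claudin that lets cations and water pass, followed the same order at lower levels: 56.5 and 48.8 TPM in DDC fed, 6.48 and 2.34 TPM in E18 and 30.1 and 14.6 TPM in normal fed samples. It was 3.42 ± 0.46 higher in DDC fed than in E18 samples (limma adjusted p = 0.000695) and -2.14 ± 0.46 in E18 against normal fed samples (adjusted p = 0.00463), the second lost without E18 sample 1 (adjusted p = 0.0616). The DDC fed difference from normal fed samples, 1.28 ± 0.46, did not pass (adjusted p = 0.0686), and was 1.78 without normal fed sample 0 (adjusted p = 0.0221) and 0.78 without normal fed sample 1 (adjusted p = 0.247).

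Cldn1, a sealing claudin of many epithelia, ran the other way. It had 88.0 and 80.1 TPM in DDC fed, 244 and 153 TPM in E18 and 39.3 and 25.0 TPM in normal fed samples. The groups did not overlap. Cldn1 was higher by 2.58 ± 0.31 in E18 than in normal fed samples (limma adjusted p = 0.000275, in 12 of 12 alternatives, at 1.41 with median-ratio scaling) and by 1.39 ± 0.31 in DDC fed than in normal fed samples (adjusted p = 0.0134). The DDC fed call was lost without DDC fed sample 0 or 1 (adjusted p = 0.0924 and 0.071) and with median-ratio scaling (0.72, adjusted p = 0.0733). Cldn1 was -1.19 ± 0.31 in DDC fed against E18 samples (adjusted p = 0.0131), which was lost without DDC fed sample 0 or 1 or E18 sample 0 (adjusted p = 0.0581, 0.0788 and 0.112), with the exon-length correction (-0.61, adjusted p = 0.0678) and with median-ratio scaling (-0.68, adjusted p = 0.0568). The ratio of Cldn3 to Cldn1 was 2.04 and 2.28 in DDC fed, 0.0148 and 0.0162 in E18 and 2.49 and 2.79 in normal fed samples, so Cldn3 was the more abundant in the fed groups and Cldn1 in E18 samples. The small gap between DDC fed and normal fed samples, -0.29 in log2 ratio, turned to 0.06 with the exon-length correction. The corrected value was taken on log2(TPM + 1) and the first on log2 TPM.

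Cldn12 was the member whose normal fed values lay above all others. It had 37.9 and 38.7 TPM in DDC fed, 22.7 and 14.5 TPM in E18 and 49.7 and 46.9 TPM in normal fed samples, with no overlap. Cldn12 fell in E18 against normal fed samples (-1.36 ± 0.24, limma adjusted p = 0.00196, in 12 of 12 alternatives, at -2.51 with median-ratio scaling). In DDC fed samples its difference of -0.33 ± 0.24 did not pass (adjusted p = 0.327), and with median-ratio scaling it was -1.0 (adjusted p = 0.0241). Between DDC fed and E18 samples it was 1.03 ± 0.24 (adjusted p = 0.00877), lost without DDC fed sample 0 or 1 (adjusted p = 0.0576 and 0.0616). Cldn14, a sealing claudin of the inner ear that the liver also makes, had 17.4 and 23.2 TPM in DDC fed, 12.5 and 6.61 TPM in E18 and 22.0 and 15.3 TPM in normal fed samples. Its E18 difference of -0.94 ± 0.34 (adjusted p = 0.0395) was lost without E18 sample 1 (adjusted p = 0.263), normal fed sample 0 (adjusted p = 0.139) or DDC fed sample 0 or 1 (adjusted p = 0.0618 and 0.0619).

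Cldn4, Cldn7 and Cldn23 were at or under 0.0204 TPM in normal fed samples and present at a few TPM in DDC fed ones. Cldn4, a sealing claudin of bile duct and other simple epithelia, had 3.14 and 4.23 TPM in DDC fed, 1.95 and 0.360 TPM in E18 and 0.0204 and 0 TPM in normal fed samples. Cldn7, which lies along the sides of epithelial cells, had 3.71 and 4.19 TPM in DDC fed and 12 and 2.81 TPM in E18 samples and was listed at 0 in both normal fed samples. Cldn23 had 1.99 and 1.59 TPM in DDC fed, 0.593 and 0.353 TPM in E18 and 0.0200 and 0.0164 TPM in normal fed samples. DDC fed samples lay above normal fed samples in all 3, and above E18 samples for Cldn4 and Cldn23. The DDC fed against normal fed fold change was 2.20 ± 0.34 for Cldn4 (limma adjusted p = 0.003, in 12 of 12 alternatives) and 1.45 ± 0.13 for Cldn23, which passed the filter through DDC fed samples alone and so had to differ. Against E18, Cldn4 was 1.22 ± 0.34 (adjusted p = 0.0175), lost without DDC fed sample 1 (adjusted p = 0.0814) and 0.656 without E18 sample 1. Beside these, the 10 cholangiocyte markers summed to 102 and 119 TPM in DDC fed, 179.8 and 128 TPM in E18 and 14.2 and 12.2 TPM in normal fed samples. Of this, Spp1 alone had 56.5 and 67.6 TPM in DDC fed, 99.2 and 71.8 TPM in E18 and 2.01 and 1.81 TPM in normal fed samples. Between DDC fed and normal fed samples, 3 of the 8 tested (Sox9, Spp1 and Prom1) were higher and 0 lower. Of all genes tested, 34.2% were higher and 3.07% lower. Krt19 did not pass there, with 0.0909 and 0.228 TPM in DDC fed, 10.9 and 5.66 TPM in E18 and 0.0482 and 0 TPM in normal fed samples. The part of cholangiocyte RNA in the levels of Cldn4 and Cldn7 was not tested.

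The remaining claudins were those of E18 samples. Cldn5, the endothelial claudin, had 3.64 and 4.86 TPM in DDC fed, 26.1 and 25.5 TPM in E18 and 2.12 and 0.609 TPM in normal fed samples. It was higher by 3.58 ± 0.33 in E18 samples (limma adjusted p = 7.3e-05, in 12 of 12 alternatives) and by 1.22 ± 0.33 in DDC fed samples (adjusted p = 0.0276) than in normal fed samples, the second in 4 of 12 alternatives, with adjusted p of 0.0836 and 0.161 without a DDC fed sample and 0.106 without either E18 sample, and at 0.741 without normal fed sample 1. Cldn15, a cation pore of the intestine, had 0.0680 and 0.132 TPM in DDC fed, 18.4 and 21 TPM in E18 and 0 and 0.0699 TPM in normal fed samples. Cldn6, a claudin of embryonic epithelia, had 0.432 and 0.338 TPM in DDC fed, 2.84 and 1.43 TPM in E18 and 0 and 0.0209 TPM in normal fed samples. Cldn13, a rodent claudin known from red blood cell precursors, was listed at 0 in both DDC fed and both normal fed samples and had 91.9 and 161 TPM in E18 samples. The 8 erythroid genes summed to 36.9 and 36.7 TPM in DDC fed, 5855 and 11420 TPM in E18 and 39.3 and 27.1 TPM in normal fed samples. The part of erythroid RNA in the level of Cldn13 was not tested.

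**Figure D5:**
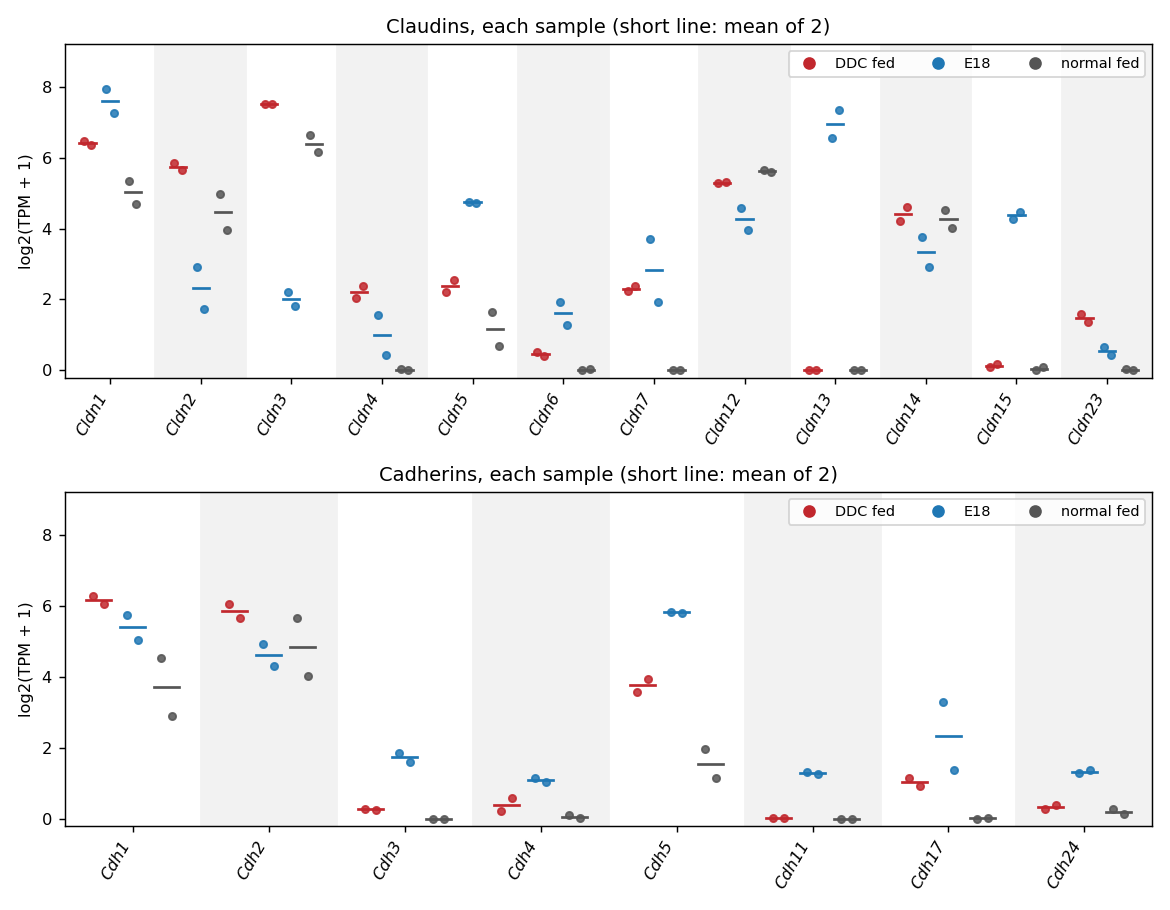
Level of each tested claudin (top) and cadherin (bottom) in each of the 6 samples, as log2(TPM + 1), with DDC fed in red, E18 in blue and normal fed in grey. Short lines are the means of 2 samples. Cldn2, Cldn3 and Cldn12 are higher in both fed groups than in E18, Cldn13 and Cldn15 are high in E18 alone, and the Cdh2 values of normal fed samples are far apart.

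Together the claudins summed to 393 and 389 TPM in DDC fed, 447 and 394 TPM in E18 and 241 and 172 TPM in normal fed samples. Cldn3 took 45.7% and 46.9% of that sum in DDC fed, 0.804% and 0.631% in E18 and 40.6% and 40.5% in normal fed samples. Cldn1 took 22.4% and 20.6% in DDC fed, 54.4% and 38.9% in E18 and 16.3% and 14.5% in normal fed samples. The summed level of E18 samples was thus close to that of DDC fed samples while its leading gene was another. Cldn12 took 9.64% and 9.94% in DDC fed samples, 5.08% and 3.68% in E18 samples and 20.6% and 27.2% in normal fed samples.

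Cldn3, Cldn4 and Cldn13 are neighbours, and each followed its own course. They lie within 73.2 kb of chromosome 5 (GRCm38): Cldn13 at 134914249 to 134915526 and Cldn4 at 134945119 to 134946934, both on the minus strand, and Cldn3 at 134986214 to 134987472 on the plus strand. A single other protein-coding gene, Mettl27 (134932368 to 134942637, plus strand), lies between them, with 33.4 and 31.0 TPM in DDC fed, 4.6 and 6.81 TPM in E18 and 8.02 and 6.27 TPM in normal fed samples. Within this stretch Cldn13 was seen in E18 samples alone, Cldn3 mainly in the fed groups, and Cldn4 in DDC fed samples above both other groups. The promoters of Cldn3 and Cldn4 are printed because the pair, side by side on the chromosome, differed in level and in course. They cover chr5:134985964-134986263 (plus strand, Cldn3) and chr5:134946885-134947184 (minus strand, Cldn4) on GRCm38.p6, as given by RefSeq, with the same extent around the start as above. Capitals mark TGANTCA, the word that AP-1 dimers of Fos and Jun bind.
Cldn3: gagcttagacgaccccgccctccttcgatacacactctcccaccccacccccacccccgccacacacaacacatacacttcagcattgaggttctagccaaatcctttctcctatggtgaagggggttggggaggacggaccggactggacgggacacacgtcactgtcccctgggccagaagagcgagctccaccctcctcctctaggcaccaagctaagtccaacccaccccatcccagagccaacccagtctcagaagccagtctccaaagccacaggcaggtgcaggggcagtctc
Cldn4: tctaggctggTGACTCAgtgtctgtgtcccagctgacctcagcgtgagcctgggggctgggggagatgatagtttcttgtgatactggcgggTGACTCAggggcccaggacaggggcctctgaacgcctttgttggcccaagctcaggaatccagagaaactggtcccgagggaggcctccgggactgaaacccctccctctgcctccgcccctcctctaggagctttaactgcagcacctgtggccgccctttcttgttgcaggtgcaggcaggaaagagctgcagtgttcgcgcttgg
The Cldn4 window holds TGACTCA beginning at -240 and at -158, and 7.81% of all 32851 promoters hold TGANTCA. The Cldn3 window holds none of the 5 words searched.

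Genes for partner proteins of the 3 families were set beside all genes tested, in lists written with earlier results of these data known. Of 21 integrin adaptor and signalling genes tested, 14 were higher in DDC fed than in normal fed samples and 0 lower, where 34.2% of all genes were higher and 3.07% lower, with a median of 1.14 against 0.45 for all genes. The kinase Src had 6.79 and 6.88 TPM in DDC fed, 14.8 and 14.9 TPM in E18 and 0.182 and 0.107 TPM in normal fed samples, a DDC fed fold change of 2.78 ± 0.17 (limma adjusted p = 0.000102). Actn1, the actin cross-linker alpha-actinin, had 34.0 and 32.1 TPM in DDC fed, 97.9 and 99.8 TPM in E18 and 9.38 and 4.85 TPM in normal fed samples. Vinculin (Vcl) and the parvin Parvg were the next in size, at 2.0 ± 0.45 and 1.87 ± 0.20 (adjusted p = 0.0143 and 0.000642). In E18 against normal fed samples 17 were higher and 3 lower, where 63.0% of all genes were higher and 12.7% lower. The blood-cell kindlin Fermt3 had 4.66 and 5.12 TPM in DDC fed, 169 and 209 TPM in E18 and 1.08 and 1.46 TPM in normal fed samples, while the widely made kindlin Fermt2 had 60.4 and 63.5 TPM in DDC fed, 65.3 and 49.3 TPM in E18 and 111 and 74.9 TPM in normal fed samples. Parvb (7.37 ± 0.23), Parvg (5.73 ± 0.20) and Lims1 (4.42) were the other leading E18 fold changes. Lims2, Parva and Fermt2 were the 3 that were lower, with Lims2 at 71.8 and 66.7 TPM in DDC fed, 4.57 and 5.30 TPM in E18 and 68.1 and 50.8 TPM in normal fed samples. Between DDC fed and E18 samples 2 were higher and 13 lower, where 17.7% of all genes were higher and 47.0% lower.

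Of 10 catenins and nectins tested, which bind cadherins or stand beside them in the adherens junction, 6 were higher and 0 lower in DDC fed than in normal fed samples (34.2% and 3.07% of all genes). Alpha-catenin (Ctnna1) had 146 and 119.9 TPM in DDC fed, 101 and 93.4 TPM in E18 and 65.5 and 23.2 TPM in normal fed samples. Its fold change was 1.73 ± 0.44 in DDC fed against normal fed samples (limma adjusted p = 0.0229). Arvcf, plakoglobin (Jup) and Nectin1 were higher by 1.91 ± 0.19, 1.70 ± 0.29 and 1.39 ± 0.36 (adjusted p = 5e-04, 0.00454 and 0.0247). In E18 against normal fed samples 6 were higher and 2, Nectin1 and Nectin3, lower, near the 63.0% and 12.7% of all genes. Nectin1 had 42.4 and 34.9 TPM in DDC fed, 7.91 and 5.17 TPM in E18 and 20.3 and 9.72 TPM in normal fed samples, an order like that of Cldn2 and Cldn3. Between DDC fed and E18 samples 3 were higher and 2 lower (17.7% and 47.0% of all genes).

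Of 20 genes for tight junction proteins other than claudins, 10 were higher and 0 lower in DDC fed than in normal fed samples, with a median of 0.91 (34.2% and 3.07% of all genes, median 0.45). The scaffold Tjp3 had 35.8 and 48.5 TPM in DDC fed, 2.95 and 2.46 TPM in E18 and 8.64 and 7.63 TPM in normal fed samples. Occludin (Ocln) had 37.9 and 26.5 TPM in DDC fed, 17.1 and 10.2 TPM in E18 and 8.88 and 7.39 TPM in normal fed samples. Their DDC fed fold changes were 2.23 ± 0.23 and 1.85 ± 0.30 (limma adjusted p = 0.00056 and 0.0039), beside 2.08 ± 0.25 for Marveld2 (tricellulin) and 1.87 ± 0.27 for Jam2. E18 samples were higher than normal fed samples in 7 and lower in 3 of the 20, where 63.0% of all genes were higher and 12.7% lower. DDC fed samples were higher than E18 samples in 9 and lower in 1, where 17.7% of all genes were higher and 47.0% lower. Cingulin-like Cgnl1 had 63.3 and 63.5 TPM in DDC fed, 6.40 and 4.19 TPM in E18 and 48.4 and 25.8 TPM in normal fed samples, and its E18 fold change against normal fed samples was -2.56 ± 0.33 (adjusted p = 0.000402).

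Set in order of level without overlap of any samples, 22 of the 43 members tested ran E18, DDC fed, normal fed downward (51.2%, where 40.7% of all genes tested did). The order DDC fed, E18, normal fed was held by 5 members: Cdh1, Cldn4, Cldn23, Itgax and Itgb5 (11.6%, against 6.03% of all genes). Cldn2 and Cldn3 held the order DDC fed, normal fed, E18 (4.65%, against 4.93%), and Cldn12 alone held normal fed, DDC fed, E18 (2.33%, against 4.06%). In the other 13 some groups overlapped (30.2%, against 41.6%). DDC fed thus lay between E18 and normal fed samples in 23 members and above both in 7. In the first order, Cdh3, Cdh4, Cdh11, Cldn6, Itga2, Itga4 and Itgb7 passed the filter through E18 samples alone. The filter thus set their highest group, and their DDC fed and normal fed values were all under 1 TPM. Cldn23 likewise passed through DDC fed samples alone.

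The 43 members that were not tested were low in every sample. The highest value among them was 1.30 TPM, for Cldn8 in E18 sample 0, with 0.0430 TPM in the other E18 sample. Listed at 0 in all 6 samples were 13 genes: Cdh7, Cldn16, Cldn17, Cldn22, Cldn24 and 8 of the Cldn34 genes (Cldn34a, Cldn34b1, Cldn34b2, Cldn34b3, Cldn34b4, Cldn34c2, Cldn34c3 and Cldn34c4). Among the 43, 29 were above 0 in some E18 sample, 15 in some DDC fed and 10 in some normal fed sample. In 21 of them both E18 values lay above all 4 values of the fed groups. The share of other untested genes with this pattern was not counted. Over the whole table, too, more genes reached 1 TPM in E18 samples than in the fed groups, so these counts are not a trait of the members alone.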

How the data were processed

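Poly(A) RNA of mouse hepatocytes was measured in 6 samples, 2 each of DDC fed adults, E18 embryos and normal fed adults, with a TruSeq stranded kit per the labels' protocols. The authors deposited TPM for 48432 genes; each column sums to 1000000. Per the submitters' processing notes the tools were STAR 2.4.2a, bcl2fastq 2.17.1.14, HTSeq, Trimmomatic, Cuffdiff 2.2.1, DESeq2 and Picard 1.119, on GRCm38 (mm10), with no role stated for any, and what made the TPM values is not given in the sources used here. With no counts, depth, intervals and count tests could not be had, and the p-values measure only the spread between these samples, since nothing says they came from separate animals. Column names run 0 and 1 where titles run 1 and 2, so a column was tied to its group and not to a title.

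Positions and biotypes came from GENCODE M21 (48053 of 48432 identifiers matched). Genes reaching 1 TPM in 2 or more samples (14307) were fitted as log2(TPM + 1) with limma 3.58.1 in R 4.3.3, 1 mean per group over all 6 samples, 3 residual degrees of freedom, empirical Bayes with a trend, two-sided, Benjamini-Hochberg over all genes tested, threshold 0.05; fold changes on this scale understate low genes. The script was tested on simulated data. Comparisons were DDC fed against normal fed, E18 against normal fed, and DDC fed against E18. Members were named with values when a group mean reached 5 TPM, when among the 8 largest called folds without overlap, or in roles with 5 or fewer members tested; Itgb4, Cldn6 and Cdh15 were named after their values were seen. Members and lists were chosen with earlier results of these data known. The 12 alternatives were a pseudocount of 0.1, no filter, median-ratio scaling, removal of each sample's trend with exon length, only the 4 samples compared, the replicate block, and leaving out each sample. RefSeq promoters matched 59 of the 86 members.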

Additional observations from a re-analysis of the deposited data

How the results depend on the processing

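Of the member calls, 11 of 22 higher in DDC fed than in normal fed, 18 of 29 higher and 2 of 5 lower in E18 than in normal fed, and 4 of 9 higher and 19 of 21 lower in DDC fed than in E18 were past the threshold under every alternative run; members listed at 0 in a whole group are outside these counts. Some of the calls that held belong to members that passed the filter through 1 group alone and so had to differ. In E18 against normal fed these were Cldn6, Cldn15, Itga2, Itga4 and Itgb7. Among those lower in DDC fed than in E18 they were the same genes with Cdh3, Cdh11, Cdh24 and Itgb4. Cldn23, through DDC fed samples, was among those higher in DDC fed than in either other group. Both rescalings moved the balance of calls over all genes. Of the genes called in DDC fed against normal fed, E18 against normal fed and DDC fed against E18, 91.8%, 83.2% and 27.4% were higher as deposited, 60%, 50.2% and 49.6% with the exon-length correction, and 61.5%, 52.6% and 46% after scaling by median ratios. After removal of the trend with exon length these were 2532 genes higher and 1689 lower, 4842 and 4800, and 4545 and 4622, and with median-ratio scaling, which tested 38 members, 2873 and 1795, 5098 and 4585, and 3927 and 4618. As deposited they were 4896 and 439, 9020 and 1815, and 2532 and 6723. The cause was not tested.

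With the exon-length correction, 14 members instead of 9 were higher in DDC fed than in E18, 22 instead of 34 were higher in E18 than in normal fed, and 3 instead of 0 were lower in DDC fed than in normal fed. The log2 difference then turned its sign in DDC fed against normal fed for Cdh24 (-0.43), Cdh4 (-0.29), Cldn14 (-0.31), Cldn15 (-0.34), Itga2 (-0.39), Itgb1bp1 (-0.022), Itgb4 (-0.57) and Itgb7 (-0.28). In E18 against normal fed it turned for Cdh4 (-0.29), Cldn23 (-0.12), Itga1 (-0.66), Itga3 (-0.49), Itgax (-0.22), Itgb1bp1 (-0.81), Itgb3bp (-0.17) and Itgb4 (-0.049). In DDC fed against E18 it turned for Cdh4 (0.0043), Itga5 (0.14), Itgb1 (0.087) and Itgb3bp (0.20). The log2 ratio of Cldn3 over Cldn1, an alternative chosen after seeing the data, differed by 0.055 between DDC fed and normal fed, against -0.29 as deposited. The first was taken on log2(TPM + 1) and the second on log2 TPM.

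With median-ratio scaling 1 member, Cldn12, was lower in DDC fed than in normal fed. The sign turned for Cldn14 (-0.53) and Itgb1bp1 (-0.14) in DDC fed against normal fed. It turned for Itga1 (-0.085), Itga3 (-0.076), Itgb1bp1 (-0.98), Itgb3bp (-0.076) and Itgb5 (-0.065) in E18 against normal fed. It turned for Itga5 (0.042), Itgb1 (0.089) and Itgb3bp (0.096) in DDC fed against E18. With a pseudocount of 0.1, Itga7 was at 0.00062 in DDC fed against normal fed. With no filter, 38 members instead of 23 were lower in DDC fed than in E18, in a table with 73 members tested instead of 43. Over all genes, 8695 of 24885 were then lower, instead of 6723 of 14307.

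Leaving out each sample in turn assumes that the lone sample of a group varies like the other groups. Over these fits 13 to 26 members were higher and 0 lower in DDC fed than in normal fed, 29 to 35 higher and 2 to 6 lower in E18 than in normal fed, and 5 to 11 higher and 21 to 25 lower in DDC fed than in E18. Over all genes the calls in DDC fed against normal fed ran over 2511 to 7962 higher and 217 to 987 lower, those in E18 against normal fed over 1147 to 2313 lower, and those in DDC fed against E18 over 1460 to 3289 higher. Differences that changed sign ran over -0.13 to 0.37 for Cldn14, -0.48 to 0.43 for Itga7, -0.0751 to 1.13 for Itgb1bp1 and -0.022 to 0.12 for Itgb4 in DDC fed against normal fed. They ran over -1.05 to 0.61 for Cdh2 and -0.42 to 0.78 for Itgb1bp1 in E18 against normal fed. They ran over -1.40 to 0.37 for Cldn7, -0.0176 to 0.43 for Itga1 and -0.19 to 0.23 for Itgav in DDC fed against E18.

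With the replicate block 25 members instead of 23 were higher and 0 lower in DDC fed than in normal fed, 36 instead of 34 higher and 5 lower in E18 than in normal fed, and 10 instead of 9 higher and 24 instead of 23 lower in DDC fed than in E18. Of the 14307 genes tested, 5102 were then higher and 498 lower in the first comparison. In the second these counts were 9157 and 1921, and in the third 2686 and 6801. Deviations from the group means of columns with the same number correlated at 0.23, 0.14 and 0.06 over 14307 genes. The last is under 0.1 and nothing in the labels ties equal numbers together, so the numbers were not taken as pairs. The block added calls for Cdh2, Cldn2 and Itga1 and ended that of Itga2b in DDC fed against normal fed, added Itga1 and Itga3 in E18 against normal fed, and added Cdh2 and Cdh17 in DDC fed against E18. The read depth behind each value is unknown.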
